A study of Mus musculus with 2 samples.

Results

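The genes described here encode the subunits of respiratory complexes I, II and III and the 13 proteins of the mitochondrial genome. They were chosen by gene symbol, and 63 of the 32285 genes in the deposited tables matched. Of these, 50 are nuclear genes, namely 37 of complex I, 4 of complex II and 9 of complex III, and 13 are mitochondrial (mt) genes. Every member was detected in both libraries, and all 63 passed the minimum of 20 UMIs (unique molecular identifiers, each standing for 1 captured RNA molecule) set for a ratio.

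The cells were myeloid-derived suppressor cells (MDSCs) grown from bone marrow of C57BL/6 mice that were female and 10 weeks old. For 4 days the marrow was cultured with IL-6 and GM-CSF at 50 ng/mL of either cytokine. One culture received 1.5 µM dabrafenib (DAB), an inhibitor of the kinase BRAF, and the control culture received the solvent DMSO. Each condition was sequenced as 1 single-cell library from the 5′ ends of RNAs, and the sources used here do not say how many mice stood behind either. MDSCs of this kind are a culture model, so the cells are those that such cytokines drive out of marrow and not cells taken from a tumor.

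The respiratory chain sits in the inner mitochondrial membrane and passes electrons from NADH and succinate to oxygen. Complex I oxidizes NADH, complex II oxidizes succinate within the citric acid cycle, and complex III carries electrons from ubiquinol to cytochrome c. Complex IV then reduces oxygen, and complex V uses the proton gradient to make ATP. Both genomes contribute: the mitochondrial genome encodes 7 subunits of complex I, 1 of complex III, 3 of complex IV and 2 of complex V, whereas every subunit of complex II is nuclear. Neutrophils are known as cells that rely mostly on glycolysis and carry few mitochondria, while monocytes and macrophages respire more. The question that the comparison addresses is whether DAB changes the expression of the oxidative phosphorylation machinery in MDSCs.

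All mt messenger RNAs but one are cut from long RNAs that are copied from 1 strand, and 2 pairs of reading frames stay together on 1 RNA each. The sequences where these frames overlap are shown because both genes of a pair come from the same molecule and yet had different ratios. The last 60 bases of the first gene of each pair are given in the direction of the RNA, with the bases that both genes share in capitals. The overlap of mt-Atp8 and mt-Atp6 was 43 bases long, at chrM:7927-7969 of GRCm38 on the plus strand. That of mt-Nd4l and mt-Nd4 was 7 bases long, at chrM:10167-10173.
mt-Atp8 to mt-Atp6, chrM:7910-7969: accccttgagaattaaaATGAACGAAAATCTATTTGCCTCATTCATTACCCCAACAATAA
mt-Nd4l to mt-Nd4, chrM:10114-10173: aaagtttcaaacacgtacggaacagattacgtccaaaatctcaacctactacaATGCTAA

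After filtering, the DMSO library held 9032 cells and 92640226 UMIs, and the DAB library 10476 cells and 140903379 UMIs. The median depth was 7573.5 UMIs per DMSO cell and 9429 per DAB cell. With 1 library per condition there were no replicates, so no test was possible and no p-value is given. Intervals are exact 95% intervals for counting error only, and a difference outside them says that these libraries differ, not that the conditions do. A gene is called higher or lower where its log2 ratio (DAB over DMSO, of CPM, which are UMIs scaled to the same total in each library) was at least 0.5 or at most -0.5 and its interval left out 0. UMIs from 5′ ends count molecules and are not divided by gene length. The libraries shared 152 cell barcodes. Abundant RNAs that mark nuclear or ribosomal RNA content also differed, with Malat1 at 4650 CPM in DMSO and 3258 CPM in DAB and Gm42418 at 27666 and 17100 CPM. Their part in the ratios below was not tested.

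Summed over all cells, the nuclear genes differed little between the libraries. Complex I genes held 6388 CPM in DMSO and 6675 CPM in DAB, a log2 ratio of 0.06 (interval 0.06 to 0.07). Complex II genes held 372 and 358 CPM, with a log2 ratio of -0.05 (interval -0.07 to -0.03). Nuclear complex III genes held 2218 and 2320 CPM, with a log2 ratio of 0.07 (interval 0.06 to 0.07). The 13 mt genes together lay further from 0, with 11946 CPM in DMSO, 13104 CPM in DAB and a log2 ratio of 0.13 (interval 0.13 to 0.14). When each cell was given the same weight instead of each UMI, the mt ratio was 0.0047 and that of complex II was 0.014. In sums over cells, fewer cells with a gene's RNA and less of it per cell cannot be told apart.

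Only 1 of the 50 nuclear members was called higher and 0 were called lower. Over all 16334 genes that passed the minimum, 13.9% were called higher and 16.6% lower, so the share of nuclear members called was below that background. The median log2 ratio was 0.04 over the nuclear members and -0.02 over all genes. In all, 32 of 50 nuclear members lay above 0, where 48.4% of all genes did. Of the 13 mt genes, 5 were called higher and 1 lower. Over 9 alternative settings mt-Atp8 passed the fold of a call in 9, mt-Cytb in 8, mt-Co3, mt-Nd4l and mt-Nd6 in 7 and mt-Nd3 in 6.

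**Figure D1:**
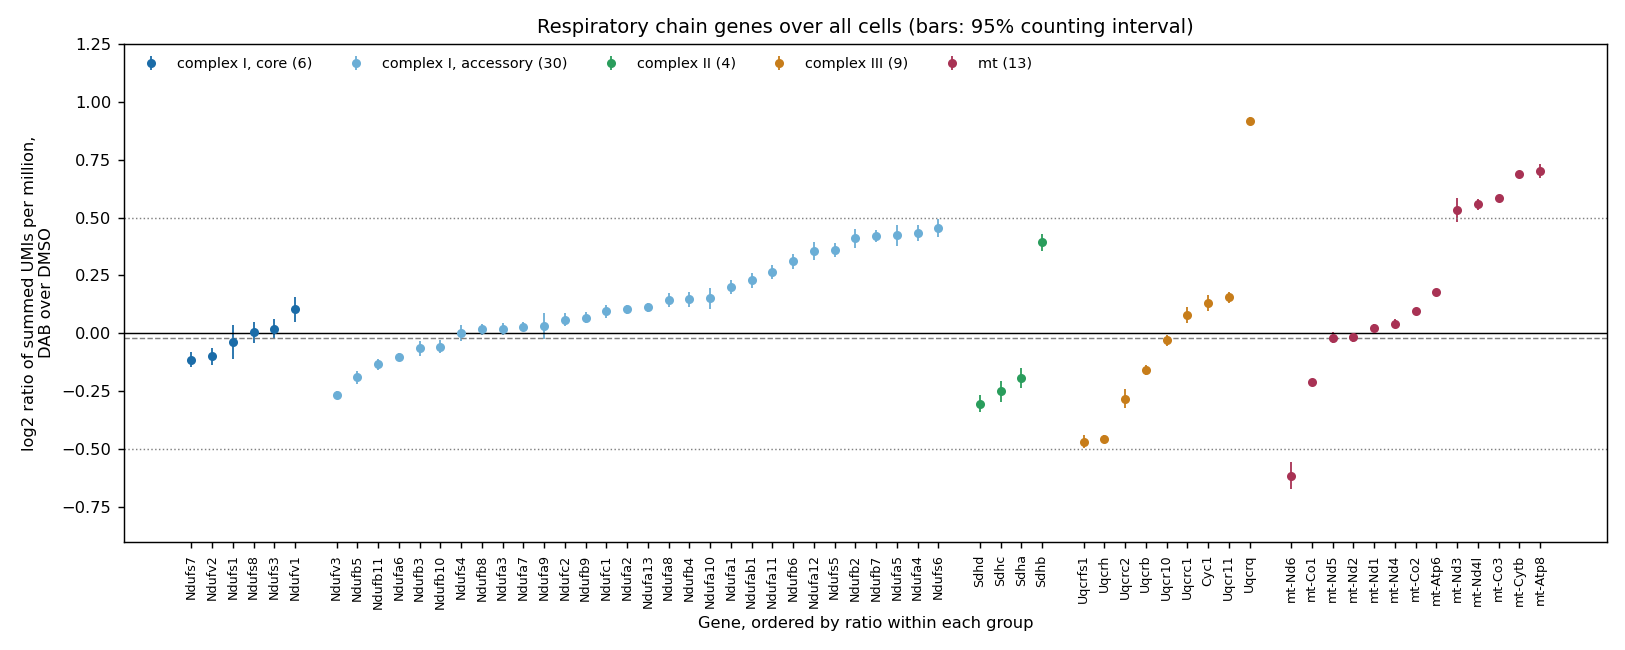
Log2 ratio of CPM, DAB over DMSO, for the genes over all cells, grouped by complex and ordered by ratio within a group. Bars are exact 95% counting intervals, dotted lines mark log2 ratios of 0.5 and -0.5, and the dashed line is the median over all genes at -0.02. Uqcrq at 0.92 is the only nuclear gene beyond the dotted lines, whereas 6 mt genes lie beyond them.

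Complex I has 7 nuclear core subunits, which carry the flavin and the iron-sulfur clusters, and a shell of accessory subunits. Among the core genes the log2 ratios were small. The NADH-binding subunit Ndufv1 held 49.8 CPM in DMSO and 53.5 CPM in DAB, a ratio of 0.10 (interval 0.05 to 0.16). Ndufs7 was at -0.11, Ndufv2 at -0.10, Ndufs1 at -0.04, Ndufs8 at 0.00 and Ndufs3 at 0.02. The median was -0.04 over the core genes and 0.11 over the 30 genes counted as accessory, of which 24 lay above 0.

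The accessory genes ran from -0.26 to 0.46, and none reached the call. The zinc-binding subunit Ndufs6 was highest, with 86.2 CPM in DMSO and 118 CPM in DAB and a log2 ratio of 0.46 (interval 0.42 to 0.50). It was followed by Ndufa4 at 0.43, Ndufa5 at 0.42, Ndufb7 at 0.42 and Ndufb2 at 0.41. Ndufa4 bears a complex I name but is now placed in complex IV. Ndufb2 overlaps Braf, the gene of the kinase that DAB inhibits, by 146 bases on the opposite strand. Such overlaps are not particular to it, since 22 of 63 members overlap another gene, 6 of them on the same strand. The paper names the SC5P-R2 chemistry for the counting and says no more on strand. At the other end stood Ndufv3, with 503 CPM in DMSO, 419 CPM in DAB and a ratio of -0.26 (interval -0.28 to -0.25). Next to it were Ndufb5 at -0.19, Ndufb11 at -0.13, Ndufa6 at -0.10 and Ndufb3 at -0.07. Ndufb3 was at 0.09 with equal weight per cell.

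Complex II showed 1 subunit apart from the other 3. Sdhb, the iron-sulfur subunit, held 98.0 CPM in DMSO and 129 CPM in DAB, a log2 ratio of 0.39 (interval 0.36 to 0.43). The flavoprotein Sdha held 79.3 and 69.4 CPM, a ratio of -0.19 (interval -0.24 to -0.15). The membrane anchors Sdhc and Sdhd had ratios of -0.25 (77.3 and 65.0 CPM) and -0.30 (117 and 94.9 CPM). The summed ratio near 0 thus joined ratios of opposite sign, although none passed the call. Sdhb lay above 0 in all 6 of the cell classes described below, and Sdhd below 0 in all 6.

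Complex III held both the highest and the lowest nuclear ratios. Uqcrq, a small subunit next to cytochrome b (chr11:53427922-53430831, minus strand), held 349 CPM in DMSO and 660 CPM in DAB. Its log2 ratio was 0.92 (interval 0.90 to 0.94), a 1.89-fold difference, and it stayed between 0.82 and 0.94 in all 9 alternative settings. The Rieske iron-sulfur protein Uqcrfs1 (chr13:30540308-30545362, minus strand) held 196 and 142 CPM, a ratio of -0.47 (interval -0.50 to -0.44). The hinge protein Uqcrh (chr4:116066965-116075071, minus strand) held 532 and 388 CPM, a ratio of -0.46 (interval -0.47 to -0.44). These were just inside the threshold of -0.5. The core protein Uqcrc2 was at -0.28 and its partner Uqcrc1 at 0.08. Cytochrome c1, encoded by Cyc1, was at 0.13, and at -0.026 in cells of 5000 to 15000 UMIs. The small subunits were at 0.16 for Uqcr11, -0.03 for Uqcr10 and -0.16 for Uqcrb.

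Promoters from RefSeq (GRCm38.p6, 250 bases before to 50 after a start site) were at hand for 41 of the 50 nuclear members. Those not matched included Cyc1, Ndufa2, Ndufb9, Ndufs1, Sdhc, Uqcrb, Uqcrc2 and Uqcrq. The promoters were searched on both strands for sites of factors known from mitochondrial genes or from stress responses. Members were counted as genes with a site in any of their promoters, whereas the shares of all are of promoter entries. The 2 shares thus differ in unit, and a gene with several entries would have more chances on the member side. CGCATGCG, the core of the NRF1 site, stood in 4 of 41 members (9.76%) and in 1.87% of all 32851 promoters. AAGATGGCG, the YY1 site, stood in 5 of 41 (12.2%) and 1.403% of all. CCGGAAGT, the site of GABPA, stood in 3 of 41 (7.32%) and 3.89% of all. TGACGTCA, the cAMP response element bound by CREB, stood in 4 of 41 (9.76%) and 1.79% of all. TGATGNAA, a site of ATF4, stood in 0 of 41 and 3.97% of all, which says only that these letters are not in these windows.

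The log2 ratios of the 4 genes with the CREB site ran from -0.47 to 0.41, those of the 5 with the YY1 site from -0.11 to 0.46, and those of the 3 with the GABPA site from -0.46 to 0.16. The 4 with the NRF1 site ran from 0.08 to 0.26. The 250 bases before the RefSeq start sites of Ndufb2 and Uqcrfs1 are shown with TGACGTCA in capitals. These genes carry the same site and stood near opposite ends of the nuclear range.
Ndufb2, chr6:39592315-39592564, plus strand: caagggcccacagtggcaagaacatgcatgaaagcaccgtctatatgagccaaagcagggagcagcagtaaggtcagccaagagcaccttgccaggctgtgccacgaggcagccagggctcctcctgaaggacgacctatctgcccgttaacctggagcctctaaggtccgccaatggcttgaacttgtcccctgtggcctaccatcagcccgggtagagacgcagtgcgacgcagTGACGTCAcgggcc
Uqcrfs1, chr13:30545317-30545566, minus strand: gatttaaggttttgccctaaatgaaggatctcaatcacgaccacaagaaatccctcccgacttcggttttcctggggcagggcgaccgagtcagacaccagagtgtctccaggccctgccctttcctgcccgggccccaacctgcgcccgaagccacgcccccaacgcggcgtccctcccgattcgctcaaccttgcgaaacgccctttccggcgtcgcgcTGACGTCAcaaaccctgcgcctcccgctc
The site began 14 bases before the RefSeq start of Ndufb2 and 29 bases before that of Uqcrfs1. The GENCODE gene of Uqcrfs1 starts further upstream, at chr13:30545362. Its site and part of the shown window thus lie inside the gene as placed above.

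The mt genes spread more widely than the nuclear ones, from -0.61 to 0.70. The most abundant, mt-Co1, which encodes the catalytic subunit of complex IV, held 4388 CPM in DMSO and 3797 CPM in DAB, a log2 ratio of -0.21 (interval -0.22 to -0.20). The other complex IV subunits went the other way, with mt-Co2 at 0.10 (2027 and 2168 CPM) and mt-Co3 at 0.59 (1511 and 2270 CPM). mt-Cytb, the cytochrome b of complex III, held 693 and 1117 CPM, a ratio of 0.69 (interval 0.68 to 0.70). Thus 3 genes that are cut from the same long RNA had ratios of -0.21, 0.59 and 0.69.

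Of the 7 mt genes of complex I, mt-Nd1 (0.02), mt-Nd2 (-0.02), mt-Nd4 (0.04) and mt-Nd5 (-0.02) were within 0.05 of 0. mt-Nd3 held 47.2 CPM in DMSO and 68.4 CPM in DAB, a log2 ratio of 0.53 (interval 0.48 to 0.59). mt-Nd4l held 259 and 381 CPM, a ratio of 0.56 (interval 0.53 to 0.58), which was 0.40 with equal weight per cell and 0.23 in cells of 5000 to 15000 UMIs. mt-Nd6 was the only mt gene called lower, with 50.0 and 32.7 CPM and a ratio of -0.61 (interval -0.67 to -0.56), and it was at -0.46 and -0.39 under those settings. It is also the only one of the 13 that is read from the other strand, and it overlaps the end of mt-Nd5 by 14 bases. With equal weight per cell, mt-Nd4 was at -0.15 instead of 0.04.

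In each bicistronic pair the short first gene had the higher ratio. mt-Atp8 held 148 CPM in DMSO and 241 CPM in DAB (log2 ratio 0.70, interval 0.67 to 0.73), whereas mt-Atp6 held 1511 and 1710 CPM (0.18, interval 0.17 to 0.19), a ratio that was -0.0094 with equal weight per cell. mt-Atp8 UMIs per mt-Atp6 UMI went from 0.0981 in DMSO to 0.141 in DAB, a log2 difference of 0.52 (interval 0.49 to 0.55). For mt-Nd4l per mt-Nd4 the values were 0.807 and 1.15, with a log2 difference of 0.51 (interval 0.48 to 0.54). Across the 6 cell classes this difference lay between 0.48 and 0.64 for the mt-Atp8 pair and between 0.24 and 0.82 for the mt-Nd4l pair, above 0 in every class. Where on these RNAs the counted reads lay was not tested. Reads inside the overlaps shown above cannot be told apart by gene.

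Cells were then sorted into classes by marker genes, with the members and all mt genes kept out of the clustering. Of 28 clusters, 16 could be named from markers, and 12 stayed unnamed. The 6 classes with at least 200 cells in each library were compared: intermediate granulocyte-like (1760 DMSO and 947 DAB cells), mature PMN-like (1486 and 1844), chemokine-high granulocyte-like (318 and 1672), granulocyte progenitor-like (226 and 296), immature monocyte-like (1082 and 453) and mature monocyte-like cells (382 and 580). PMN stands for polymorphonuclear, the granulocytic branch of MDSCs. Markers from the list of each class were present. Ngp was at 19543 and 8821 CPM in intermediate granulocyte-like cells, beside 2906 and 772 CPM over all cells. Elane was at 606 and 543 CPM in granulocyte progenitor-like cells, beside 44.6 and 42.1 CPM over all cells. Cd209a was near 0 in mature monocyte-like cells, at 0.8 and 1.5 CPM, beside 0.17 and 0.25 CPM over all cells. Not every listed marker stood above the level of all cells in both libraries. Ccr2 in immature monocyte-like cells was at 204 CPM in DMSO and 26.1 CPM in DAB, beside 107 and 29.6 CPM over all cells. F13a1 in the same class was at 253 and 20.9 CPM, beside 118 and 29.4 CPM. Hdc in mature PMN-like cells was at 9.4 and 52.3 CPM, beside 16.5 and 92.6 CPM. Within the intermediate granulocyte-like class, cluster 7, led by Camp, Ngp and Ltf, held 791 of the DMSO but 168 of the DAB cells. Within the mature PMN-like class, cluster 5 held 156 DMSO and 814 DAB cells. Within the chemokine-high class, cluster 4 (244 DMSO and 942 DAB cells) was led by Gpnmb, Ccl3 and Atp6v0d2, and cluster 10 (74 and 730) by Cxcl3, Cxcl2 and Mmp13. The markers of that class are chemokine genes, so its granulocyte name rests only on Csf3r or S100a8 being above the remaining cells. The class ratios below were taken over such mixes of clusters. Class values at an equal mix of clusters are given with the dependence on processing where they left the intervals described there. Beyond that, the part of the mixes was not tested.

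The median ratio of the nuclear members was above that of all genes in mature monocyte-like cells. The same held in the 3 classes named granulocyte or PMN other than granulocyte progenitor-like cells. In intermediate granulocyte-like cells their median log2 ratio was 0.30, beside 0.12 over all genes, and 17 of 50 were called higher and 2 lower. Of all genes in that class 21.3% were called higher and 11.8% lower. In mature PMN-like cells the median was 0.23, beside 0.15 over all genes, with 10 called higher, 2 lower, and 20.1% and 9.91% of all genes. Chemokine-high granulocyte-like cells had a median of 0.10, beside 0.02, with 3 called higher, 1 lower, and 9.78% and 10.2% of all genes. The share called in the mature PMN-like and chemokine-high classes was close to or below that of all genes, and 17 of 50 in the intermediate class was above it.

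In granulocyte progenitor-like cells the median was -0.04, beside -0.03, with 3 members called higher and 2 lower, where 15.9% and 17.4% of all genes were called. In immature monocyte-like cells it was -0.10, beside -0.07, with 1 called higher, 1 lower, and 11.3% and 18.1% of all genes. In mature monocyte-like cells it was 0.13, beside -0.01, with 7 called higher, 0 lower, and 16.5% and 18.6% of all genes. Without doublet removal, when fewer clusters took the name, the median of intermediate granulocyte-like cells was 0.13.

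The core genes of complex I differed in sign between classes. In intermediate granulocyte-like and in mature PMN-like cells 7 of 7 lay above 0, and in immature monocyte-like cells 0 of 7 did. Of all genes, 6613 of 11273, 6645 of 10776 and 5301 of 12131 lay above 0 there. In chemokine-high granulocyte-like cells 3 of 7 core genes did, beside 5728 of 10961 genes. In granulocyte progenitor-like cells 2 of 7 did, beside 5402 of 11233, and in mature monocyte-like cells 2 of 7, beside 5884 of 11852. The sum of the core genes held 327 CPM in DMSO and 399 CPM in DAB in intermediate granulocyte-like cells (log2 ratio 0.29, interval 0.22 to 0.35). It held 569 and 668 CPM in mature PMN-like cells (0.23, interval 0.17 to 0.30) and 665 and 543 CPM in immature monocyte-like cells (-0.29, interval -0.34 to -0.25). Ndufv1 and Ndufs3 were called higher in intermediate granulocyte-like cells, at 0.60 and 0.55, where 21.3% of all genes were called higher. Whether the classes differ was not tested.

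Some nuclear members had 1 sign in all 6 classes. Uqcrq was the nuclear member with the highest ratio in 5 classes, with log2 ratios between 0.67 and 1.32. In mature monocyte-like cells it went from 302 CPM in DMSO to 756 CPM in DAB. In mature PMN-like cells Ndufb6, an accessory subunit of the complex I membrane arm, was highest instead, with 134 and 228 CPM and a ratio of 0.77 (interval 0.64 to 0.89). Uqcrh was the lowest in the 3 classes named granulocyte or PMN other than granulocyte progenitor-like cells, between -0.61 and -0.53. Over all 6 classes it lay between -0.61 and -0.36. Uqcrfs1 was lowest in immature monocyte-like cells, with 234 and 156 CPM and a ratio of -0.59 (interval -0.67 to -0.50), and in mature monocyte-like cells at -0.44. Sdhc was lowest in granulocyte progenitor-like cells, with 114 and 77.2 CPM and a ratio of -0.56 (interval -0.73 to -0.40). In all, 13 of 50 nuclear members (26%) lay above 0 in all 6 classes and 6 (12%) below, where 20.4% and 15.2% of 9905 genes measured in all 6 did.

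**Figure D2:**
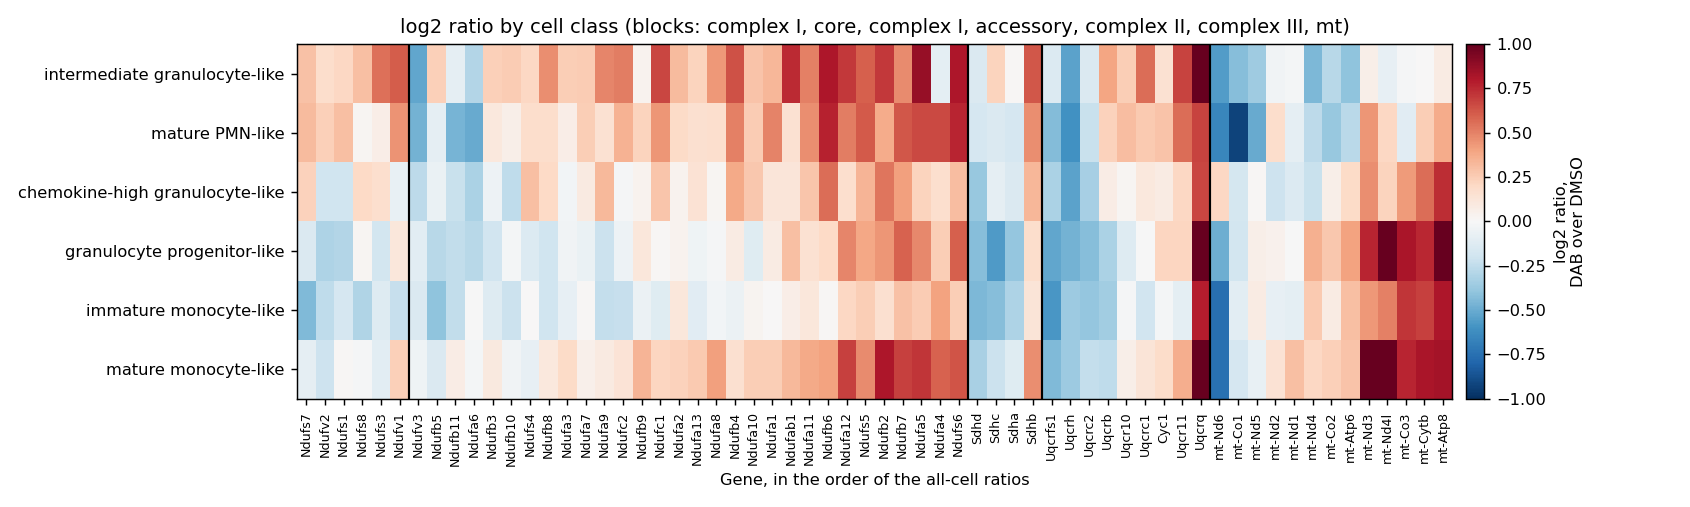
Log2 ratio, DAB over DMSO, of the genes (columns, in the order of the all-cell ratios within complex I core, complex I accessory, complex II, complex III and mt) in each of 6 cell classes (rows). Red is higher and blue lower in DAB, and colors are capped at log2 ratios of 1 and -1. Uqcrq is red and Uqcrh blue in all 6 rows, and the mt block is mostly blue in the rows of mature PMN-like and intermediate granulocyte-like cells and mostly red in the granulocyte progenitor-like and both monocyte rows.

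The summed mt genes were lower in DAB in some classes and higher in others. In intermediate granulocyte-like cells their sum went from 11531 CPM in DMSO to 9595 CPM in DAB, a log2 ratio of -0.27 (interval -0.28 to -0.25). In mature PMN-like cells it went from 6008 to 4531 CPM, a ratio of -0.41 (interval -0.43 to -0.38). Among chemokine-high granulocyte-like cells the sums were 9543 and 10113 CPM (0.08, interval 0.06 to 0.11). The remaining classes all had more mt RNA in DAB, with 11311 and 13577 CPM in granulocyte progenitor-like cells (0.26, interval 0.25 to 0.28), 13902 and 15853 CPM in immature monocyte-like cells (0.19, interval 0.18 to 0.20) and 11521 and 13733 CPM in mature monocyte-like cells (0.25, interval 0.24 to 0.27). The summed nuclear genes were at 0.20 in the intermediate and 0.15 in the mature PMN-like class, opposite in sign to the summed mt genes. In immature monocyte-like cells they were at -0.05 (interval -0.06 to -0.04), also opposite in sign to the mt sum there. The lower mt level of the intermediate and mature PMN-like classes did not hold for every mt gene. In mature PMN-like cells 5 of 13 mt genes lay above 0, with a median of -0.11, and in intermediate granulocyte-like cells 3 did, with a median of -0.08. The mt genes of complex IV in mature PMN-like cells went from 4017 to 2632 CPM (-0.61), whereas those of complex I were at -0.06 and mt-Cytb at 0.25. These differences between classes were not tested.

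The mt ratio of these granulocyte classes depended on the cells kept and on which clusters then took the class name. In the intermediate class the mt ratio was -0.011 without doublet removal and -0.081 without alignment of the libraries. Without doublet removal, a cluster of 956 DMSO and 767 DAB cells led by S100a9 and Ly6g was unnamed, so the class held only the cluster led by Camp. Within that class it was -0.39 in cluster 0 and -0.04 in cluster 7. In the mature PMN-like class it was -0.12 without the filter on mitochondrial share, which uses these same 13 genes, -0.15 without alignment and -0.25 in cells of 5000 to 15000 UMIs. Without cluster 19, which was led by the heat shock genes Hspa1b and Hspa1a and had an mt ratio of -0.73, it was -0.34. The other clusters of the class also differed, with mt ratios of -0.35 in cluster 3 and -0.51 in cluster 5. In cluster 14 the ratio was -0.02 (interval -0.09 to 0.04). Hspa1a in cluster 19 was at 528 CPM in DMSO and 0 CPM in DAB. In the mature PMN-like class Hspa1a was at 46.6 CPM in DMSO and 0.145 CPM in DAB. The gap was not particular to that class, with 10.5 and 0.128 CPM over all cells and lower levels in DAB in every compared class. The part of Hspa1a in the mt ratio was not tested.

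Single mt genes departed from the summed ratio. mt-Atp8, mt-Nd3 and mt-Cytb lay above 0 in all 6 classes and mt-Co1 below 0 in all 6. These were 3 (23.1%) and 1 (7.69%) of the 13 mt genes, where 20.4% and 15.2% of 9905 genes did so. In intermediate granulocyte-like cells mt-Cytb was at only 0.01 (interval -0.04 to 0.05). mt-Atp8 went from 144 CPM in DMSO to 257 CPM in DAB in mature monocyte-like cells (0.83, interval 0.74 to 0.93), and from 189 to 200 CPM in intermediate granulocyte-like cells (0.08, interval -0.01 to 0.17). mt-Nd4l reached 1.03 in both granulocyte progenitor-like and mature monocyte-like cells and was at -0.08 in intermediate granulocyte-like cells, the widest range over classes of any member. mt-Co1 in mature PMN-like cells, from 2368 to 1249 CPM, had the lowest ratio of any member in any class, -0.92 (interval -0.96 to -0.88). mt-Nd6 was called lower in intermediate granulocyte-like, mature PMN-like and both monocyte classes, between -0.76 and -0.56. In chemokine-high granulocyte-like cells it rested on 36 DMSO and 277 DAB UMIs and was at 0.21 (interval -0.29 to 0.75).

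**Figure D3:**
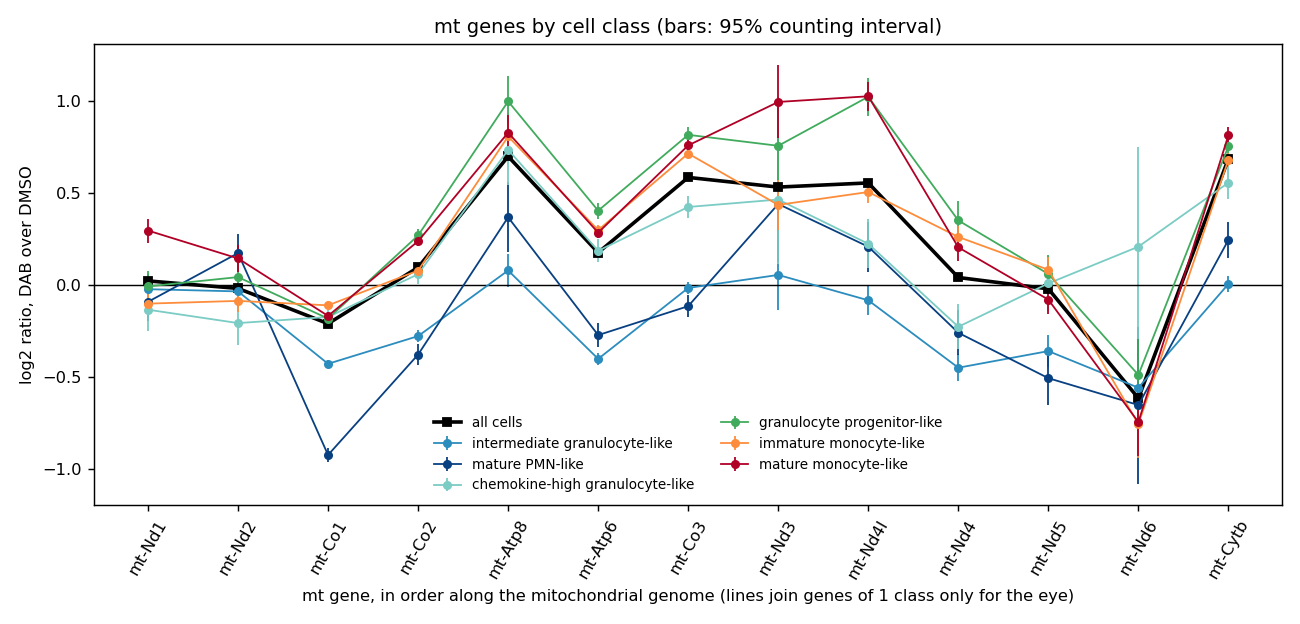
Log2 ratio, DAB over DMSO, of the 13 mt genes in their order along the mitochondrial genome, for all cells (black squares) and 6 cell classes (colored points). Bars are exact 95% counting intervals, and lines only join the points of a class. mt-Atp8 stands above mt-Atp6 and mt-Nd4l above mt-Nd4 in every class, and the 2 lowest lines over most of the genome are those of mature PMN-like and intermediate granulocyte-like cells.

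Per cell, the median share of UMIs from mt genes was 0.998% in DMSO and 1.003% in DAB. In intermediate granulocyte-like cells it was 1.08% in DMSO and 0.76% in DAB, with quartiles of 0.74 to 1.53% and 0.38 to 1.17%. In mature PMN-like cells the medians were 0.30% and 0.29%, lower than in any other compared class. In the upper tail of that class, 70 of 1486 DMSO cells (4.71%, exact binomial interval 3.69 to 5.91%) and 24 of 1844 DAB cells (1.30%, interval 0.836 to 1.93%) had more than 2% mt UMIs. Without such cells the summed mt ratio of the class was -0.29, beside -0.41 with them. Immature monocyte-like cells had the highest medians, 1.38% and 1.54%. Granulocyte progenitor-like cells went from 1.06% to 1.29% and mature monocyte-like cells from 1.14% to 1.34%.

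The share of UMIs from the 50 nuclear members varied less between classes. Its median was 0.87% of a DMSO cell's and 0.93% of a DAB cell's UMIs. It was lowest in intermediate granulocyte-like cells, at 0.58% and 0.71%, and highest in mature PMN-like cells of the DAB library, at 1.08%. In the DMSO library immature monocyte-like cells were highest, at 0.99%, and mature PMN-like cells stood at 0.97%.

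**Figure D4:**
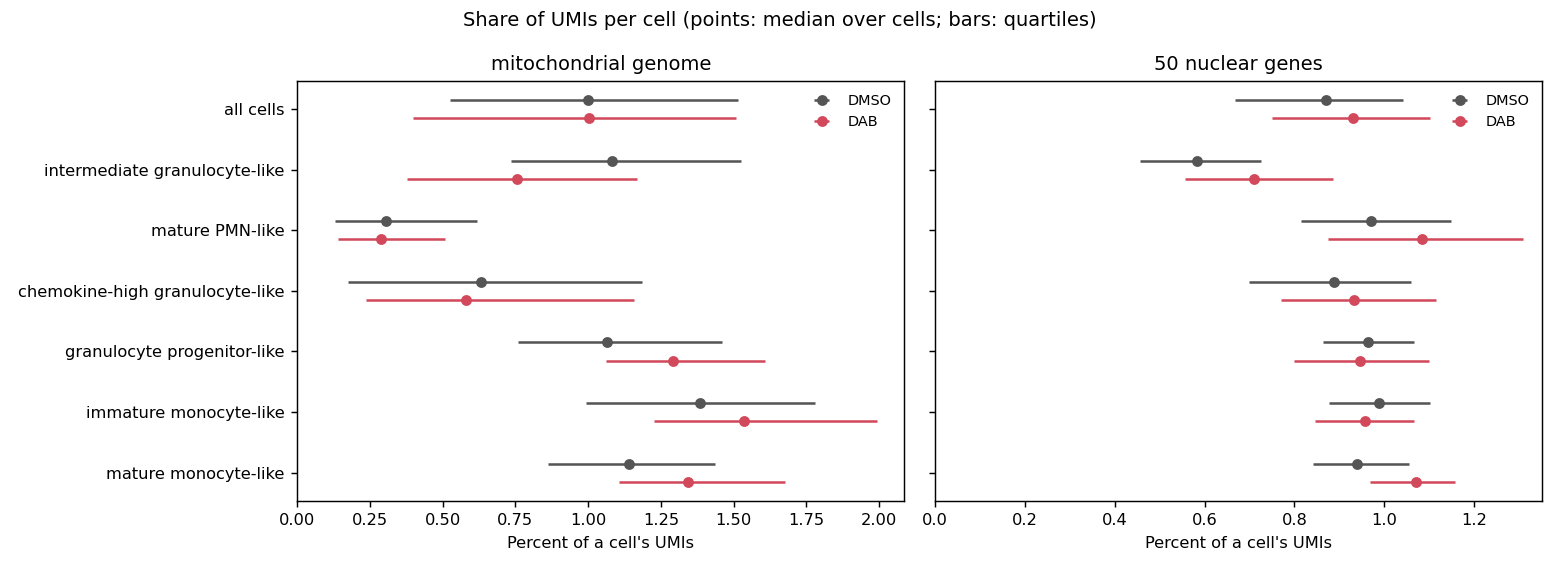
Percent of a cell's UMIs from the mt genes (left) and from the 50 nuclear genes (right), by class, for DMSO (grey) and DAB (red). Points are medians over cells and bars run from the lower to the upper quartile. Mature PMN-like cells have the lowest mt share, at 0.30% and 0.29%, and intermediate granulocyte-like cells the lowest nuclear share, at 0.58% and 0.71%.

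Genes that assemble or express the respiratory chain were read from lists. Of 16 measured complex I assembly factors, 14 lay above 0 with a median log2 ratio of 0.18, and 2 were called higher and 0 lower, where 13.9% and 16.6% of all genes were. Ndufaf4 went from 7.62 CPM in DMSO to 14.8 CPM in DAB (0.96, interval 0.84 to 1.09), and Tmem126a from 32.0 to 46.3 CPM (0.53). The lowest was Tmem126b, another assembly factor, at -0.42. In mature PMN-like cells 8 of 16 were called higher and in intermediate granulocyte-like cells 7 of 16, beside 20.1% and 21.3% of all genes. Fewer were called in the other classes. Chemokine-high granulocyte-like cells had 3 higher and 1 lower (9.78% and 10.2% of all genes), and granulocyte progenitor-like cells 3 and 2 (15.9% and 17.4%). Immature monocyte-like cells had 1 and 1 (11.3% and 18.1%), and mature monocyte-like cells 4 and 0 (16.5% and 18.6%). Of 10 complex II and III assembly factors 0 were called either way over all cells, where 13.9% of all genes were called higher and 16.6% lower. They ran from Uqcc3 at -0.30 to Uqcc1 at 0.49.

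Of 17 genes of mitochondrial transcription and RNA handling, 14 lay above 0 with a median of 0.19, and 3 were called higher and 1 lower, near the same 13.9% of all genes for higher calls. The mitochondrial RNA polymerase Polrmt went from 3.51 to 4.99 CPM (0.51), the RNA-stabilizing Lrpprc from 13.4 to 19.2 CPM (0.52) and the RNA-binding Fastkd2 from 2.67 to 4.17 CPM (0.65, interval 0.43 to 0.87). Polg2, the accessory subunit of the mitochondrial DNA polymerase, went from 10.98 to 5.73 CPM (-0.94, interval -1.07 to -0.80). Among 7 measured biogenesis factors the coactivators Pprc1 and Ppargc1b parted. Pprc1 went from 8.06 to 14.1 CPM (0.80, interval 0.68 to 0.93), whereas Ppargc1b went from 3.76 to 0.97 CPM (-1.95, interval -2.25 to -1.66). Ppargc1a had 2 UMIs in DMSO and 1 in DAB.

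Nuclear genes of complexes IV and V were also counted. Of 12 listed complex IV genes, Ndufa4 included, 0 were called either way, with a median of -0.03. They ranged from Cox7a2l at -0.34 to Ndufa4 at 0.43. The list did not include Cox6a2, for which the paper reports strong induction by DAB in its monocytic and progenitor clusters. Of 16 complex V genes 0 were called, with a median of 0.03 and a range from Atp5g2 at -0.33 to Atp5j at 0.44. Over all 16334 genes that passed the minimum, 13.9% were called higher and 16.6% lower.

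Clusters outside the compared classes held some of the widest mt values. The leading genes of cluster 15 included the nuclear RNAs Gm26917 and Neat1, and also Gria3, St6galnac3 and Kcnq5. This cluster had a median mt share of 3.57% in DMSO and 4.47% in DAB and a nuclear member share of 0.20% and 0.21%. B cell-like cells (cluster 21, 144 DMSO and 190 DAB cells) went from 6937 to 13573 CPM of mt genes, a log2 ratio of 0.97 (interval 0.92 to 1.01), the highest of the 24 clusters in which both libraries had 50 cells or more, while their nuclear members were at 0.26. The mt ratio lay above 0 in 15 clusters and below 0 in 9. Without clusters 8 and 15 the ratio over all cells was 0.10.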

How the data were processed

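The deposited values are counts: the authors aligned the 5′ libraries to mm10 and used Cell Ranger 7.0.0, per the submitters' processing notes, to tally UMIs for every gene in every barcode, without normalization. The paper names the SC5P-R2 chemistry setting for that counting. How introns, strand and near-identical nuclear copies of members were treated was not spelled out further in the sources used here. Seurat 4.3.0 and R 4.1.2 stand in the submitters' processing notes for later steps that were not used.

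Barcodes over 10% mt UMIs were left out (55 DMSO, 89 DAB), a limit of 4 median absolute deviations removed none, and doublets scored against simulated doublets were removed (768 and 1066). Pearson residuals of the 3000 most variable genes, without members and mt genes, were reduced to 40 components, aligned by mutual nearest neighbours (k = 20) and clustered with Leiden at resolution 0.9. A cluster was named from its markers where at least 3 of them, and the majority of those detected, had a log2 fold of at least 1, and where more of them than of any other class were among its 10 leading genes. Granulocyte names other than the progenitor required a higher level of Csf3r or S100a8 than in the remaining cells, and shallow clusters needed a marker among the leading genes. Ratios were taken from summed UMIs with exact conditional (Clopper-Pearson) 95% intervals, and levels as CPM. The tools were leidenalg 0.10.2, igraph 0.11.9, scipy 1.17.1 and numpy 2.4.6 under Python 3.11.15, and the ratio step was tested on simulated counts. Depth was 92640226 UMIs in DMSO and 140903379 in DAB.

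The members and lists were chosen with earlier results of these data known. Named in the text were all mt, complex II and nuclear complex III genes, the core genes of complex I, the 5 accessory genes at each end, the highest and lowest nuclear member of each class and the highest and lowest gene of each list. The values of 1 member are not reported here, and it is left out of the figures. Other genes were chosen after their values were seen. Gene positions and overlaps came from GENCODE M21 (GRCm38).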

Additional observations from a re-analysis of the deposited data

Results flagged for a closer look

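The summed mt genes had log2 ratios of opposite sign in different classes, which was not tested, since each class had 1 library per condition. The ratio was -0.27 in intermediate granulocyte-like and -0.41 in mature PMN-like cells. It was 0.084 in chemokine-high granulocyte-like, 0.26 in granulocyte progenitor-like, 0.19 in immature monocyte-like and 0.25 in mature monocyte-like cells.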

How the results depend on the processing

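No paired analysis was possible because each condition had 1 library, so no replicate could be left out or blocked. With equal weight per cell the log2 ratios were 0.12 (complex I), 0.014 (complex II, reversed), 0.094 (complex III) and 0.0047 (mt), with 3 nuclear members called higher and 1 lower. Scaled by the median of gene ratios, which shifts all ratios by 0.02, they were 0.084, -0.034, 0.085 and 0.15. With both libraries at the mean mix of classes they were 0.050, -0.081 and 0.20 (complex I, II and mt). All unnamed cells, 3166 in DMSO and 4172 in DAB, counted as 1 class there, so the mix of clusters within a class was not set equal. In cells of 5000 to 15000 UMIs the ratios were 0.035, -0.077, 0.022 and 0.13. There 2 nuclear members were called higher, and median mt shares were 1.04% in DMSO and 0.97% in DAB. The share of all genes called was not computed with equal weight per cell or in cells of 5000 to 15000 UMIs.

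Other values outside their intervals follow by class. A nuclear median was given the width of the counting interval of the summed nuclear ratio, and a median mt share an interval over cells. For intermediate granulocyte-like cells, the nuclear median and the mt ratio were 0.13 and -0.011 without doublet removal, 0.26 and -0.18 at resolution 1.5, 0.23 and -0.081 without alignment, 0.21 and -0.25 at an equal mix of clusters, and 0.32 and -0.21 in cells of at most 2% mt UMIs. The mt ratio was -0.30 without the mt filter and -0.25 in cells of 5000 to 15000 UMIs. For mature PMN-like cells the pair was 0.16 and -0.34 without doublet removal, 0.20 and -0.35 at resolution 1.5, 0.19 and -0.15 without alignment, and 0.19 and -0.25 in cells of 5000 to 15000 UMIs. The mt ratio was -0.28 at resolution 0.5, -0.12 without the mt filter, -0.29 in cells of at most 2% mt UMIs and -0.34 without cluster 19. For chemokine-high granulocyte-like cells it was 0.0038 and 0.13 without doublet removal, 0.059 and 0.22 without alignment, 0.039 and 0.023 in cells of 5000 to 15000 UMIs and 0.14 and 0.039 at an equal mix of clusters. The nuclear median was 0.043 at resolution 0.5 and 0.059 without the mt filter. For granulocyte progenitor-like cells it was -0.071 without doublet removal. For immature monocyte-like cells it was -0.088 and 0.11 at resolution 0.5, -0.089 and 0.17 without the mt filter and -0.084 and 0.15 in cells of at most 2% mt UMIs. The mt ratio was 0.14 without doublet removal, 0.15 at resolution 1.5 and 0.29 in cells of 5000 to 15000 UMIs. For mature monocyte-like cells it was 0.098 and 0.24 without doublet removal, 0.095 and 0.24 without the mt filter, 0.053 and 0.27 at resolution 0.5, 0.15 and 0.31 without alignment, and 0.15 and 0.22 in cells of at most 2% mt UMIs.

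Over all cells, the complex I ratio was 0.058 and the DAB mt median 1.04% without doublet removal, and the mt ratio was 0.15 without the mt filter and 0.099 without clusters 8 and 15. The cause of these moves was not tested. Of 63 members, 11 changed sign with equal weight per cell, each within 0.18 of 0, and none of those called did; in cells of 5000 to 15000 UMIs 8 did, each at most 0.131 from 0. Granulocyte progenitor-like cells gave no value without alignment, without the mt filter, at resolution 0.5 or in cells of 5000 to 15000 UMIs, mature monocyte-like cells none in the last, and immature monocyte-like cells none without alignment. The equal mix of clusters, the limit of 2% and the settings without clusters or shared barcodes were chosen after the data were seen.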

Other observations

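The median log2 ratio of the 16 complex I assembly factors was above that of the 37 nuclear complex I subunits in all 6 classes. It was 0.71 beside 0.32 in intermediate granulocyte-like, 0.56 beside 0.24 in mature PMN-like and 0.40 beside 0.14 in chemokine-high granulocyte-like cells. It was 0.28 beside -0.016 in granulocyte progenitor-like, -0.040 beside -0.062 in immature monocyte-like and 0.33 beside 0.19 in mature monocyte-like cells. These lists were chosen with results known, and the differences were not tested.

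The mt share differed with the depth of a cell, without a steady trend. In cells of 500 to 2500 UMIs it was 1.11% in DMSO and 0.80% in DAB. In cells of 2500 to 5000 UMIs it was 0.973% in DMSO and 0.726% in DAB, and in cells of at least 15000 UMIs 1.23% and 1.37%. Classes differed in depth, with medians of 3120.5 and 3232.5 UMIs in mature PMN-like cells, so depth and class cannot be told apart here. Log transcript length and log2 ratio of the nuclear members had a Pearson r of -0.03 across 50 genes, which are not independent.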
